A study of Mus musculus with 6 samples.

Results

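Rbm3 and Cirbp encode the cold-inducible RNA-binding proteins RBM3 and CIRBP, and their transcripts were read by 4 of the 35557 probe sets on the arrays, 3 of Rbm3 and 1 of Cirbp. The members were all probe sets whose only gene symbol in the platform annotation was Rbm3 or Cirbp, and both genes were selected on their differences between Ppif-/- and WT hearts on these same arrays. They are 2 of the 19938 genes read by a probe set with 1 symbol. Hearts of Ppif-/- mice, which carry a global knockout of Ppif and had been backcrossed to C57BL/6 from Sv129, were compared with hearts of wild-type (WT) C57BL/6 mice, all aged 8 weeks, with no treatment given in the labels. All 6 hearts were removed quickly and stored for 48 h at 4 degrees in an RNA preservative before extraction, so both genotypes share this cold storage. Each of the 3 Ppif-/- and 3 WT hearts was hybridised to 1 Affymetrix Gene 1.0 ST array, and the values are log2 expression after RMA, which removes background, brings the arrays to a common distribution and combines the probes of each set into 1 value. Ppif encodes cyclophilin D, a protein-folding isomerase found in the matrix of mitochondria that promotes the permeability transition, and the series set out to find transcripts that differ before the heart fails. No source used here states the body temperature of the mice, the hour at which hearts were taken or whether WT mice were littermates.

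RBM3 and CIRBP are small proteins with an RNA recognition motif (RRM) followed by a glycine-rich tail. Mild cooling raises their transcripts in mammalian cells while most protein synthesis slows, and in mice Cirbp follows the daily rhythm of body temperature, low in the warm phase. CIRBP binds clock transcripts in mouse fibroblasts and supports the amplitude of the clock, and both proteins influence the choice of polyadenylation site.

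The targeted gene matched the labels in all 6 hearts, with Ppif at 6.00, 6.25 and 6.44 in Ppif-/- hearts, against 11.44, 11.28 and 11.49 in WT hearts (difference -5.17 ± 0.12 SE, limma adjusted p = 2.97e-06). Array medians lay between 6.03 and 6.11, and 2 arrays correlated across probe sets at 0.995 to 0.997 if they shared a genotype and at 0.991 to 0.995 if they did not. All 8 cardiomyocyte markers were high (gene means 12.75 to 14.21). Their summed level was 16.59 to 16.61 in Ppif-/- and 16.57 to 16.62 in WT hearts. None passed an adjusted p of 0.05 in limma. Ppif-/- hearts were separate and lower for Ryr2 (-0.19, limma adjusted p = 0.248; 10.6% of all tested probe sets were separate and lower). They were separate and higher for Myl2 and Myl3, each at 0.07 (9.21% of all tested probe sets). Of 4 smooth muscle markers, 4 had differences below 0 and 1 passed an adjusted p of 0.05 in limma (Tagln, -0.51). Over all tested probe sets, 0.624% passed with higher and 0.461% with lower values in Ppif-/- hearts. An unadjusted p under 0.05 was reached by 3 of the 4 (6.81% of all tested probe sets). Hearts of Ppif-/- mice were separate and lower for 3 (10.6%), with Myh11 at -0.53 and Cnn1 at -0.48. The summed smooth muscle level was 11.50 to 11.61 in Ppif-/- hearts, against 11.71 to 11.95 in WT hearts. Among 5 macrophage markers, 3 had differences above 0 and 2 below, and only Cd68 passed in limma (0.56). Their sums were 11.04 to 11.23 in Ppif-/- and 11.03 to 11.06 in WT hearts. Among 5 fibroblast markers, 2 had differences above 0 (Col1a2 at 0.27 and Col1a1 at 0.21) and 3 below. Only Pdgfra passed in limma, with lower values in Ppif-/- hearts (-0.44), and the fibroblast sums overlapped. Each of these 3 calls was lost whichever single heart was left out (limma adjusted p = 0.0537 to 0.145). The 4 measured T and B cell markers were dim, with 0 passing in limma. An unadjusted p under 0.05 with lower values in Ppif-/- hearts was reached by 2 (6.81% of all tested probe sets). Their list had sums of 6.89 to 7.01 in Ppif-/- hearts, against 7.05 to 7.14 in WT hearts. The thermogenic marker Ucp1 of brown fat averaged 4.35 ± 0.03 in Ppif-/- and 4.30 ± 0.24 in WT hearts, with a limma adjusted p of 0.907. The part of these cell type shifts in the values of Rbm3 and Cirbp was not tested. In whole hearts, more cells of a type and more RNA per cell cannot be told apart.

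Both genes had higher values in Ppif-/- than in WT hearts, Rbm3 by about 1.59-fold and Cirbp by about 1.26-fold. Rbm3, which binds messenger RNA and ribosomes and is named for its RNA-binding motif, was read by 3 probe sets. Probe set 10556113 gave 11.44, 11.41 and 11.27 in Ppif-/- hearts, against 10.78, 10.64 and 10.69 in WT hearts. All 3 Ppif-/- hearts lay above all 3 WT hearts, and the gap of 0.49 between the nearest hearts of the genotypes exceeded the range within either one (0.17 in Ppif-/-, 0.14 in WT). Means were 11.37 ± 0.09 in Ppif-/- and 10.71 ± 0.07 in WT hearts (SD, n = 3 each), a difference of 0.67 ± 0.08 (SE of the limma fit over all tested probe sets). Since this contrast chose the genes, the difference is a description and no p is given for it.

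Probe set 10358454 gave 11.33, 11.29 and 11.14 in Ppif-/- hearts, against 10.66, 10.53 and 10.58 in WT hearts, a difference of 0.66 ± 0.08. Probe set 10603469 gave 11.00, 10.92 and 10.80 in Ppif-/- hearts, against 10.30, 10.17 and 10.23 in WT hearts, again 0.67 ± 0.08. The 3 probe sets ordered the hearts identically: heart 1 was the highest and heart 3 the lowest in Ppif-/-, and heart 1 the highest and heart 2 the lowest in WT. Their offsets from each other varied over the 6 arrays by an SD of only 0.0084 to 0.016, far below the spread between hearts. All 3 are annotated with the same 12 transcript accessions, so they count here as 1 measurement of Rbm3 and not as 3. Whether they share probes, or also read near-identical copies of the gene elsewhere in the genome, cannot be seen from the annotation.

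Cirbp, which encodes the other cold-inducible protein and is known to move into stress granules and to bind transcripts at their 3′ ends, was read by probe set 10364712. It gave 9.61, 9.72 and 9.76 in Ppif-/- hearts, against 9.32, 9.29 and 9.46 in WT hearts. The genotypes did not overlap, but the gap of 0.146 between Ppif-/- heart 1 and WT heart 3 was smaller than the range within Ppif-/- hearts (0.153) or WT hearts (0.167). Means were 9.69 ± 0.08 in Ppif-/- and 9.36 ± 0.09 in WT hearts, a difference of 0.34 ± 0.08, against 0.67 for Rbm3 on the log2 scale.

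**Figure D1:**
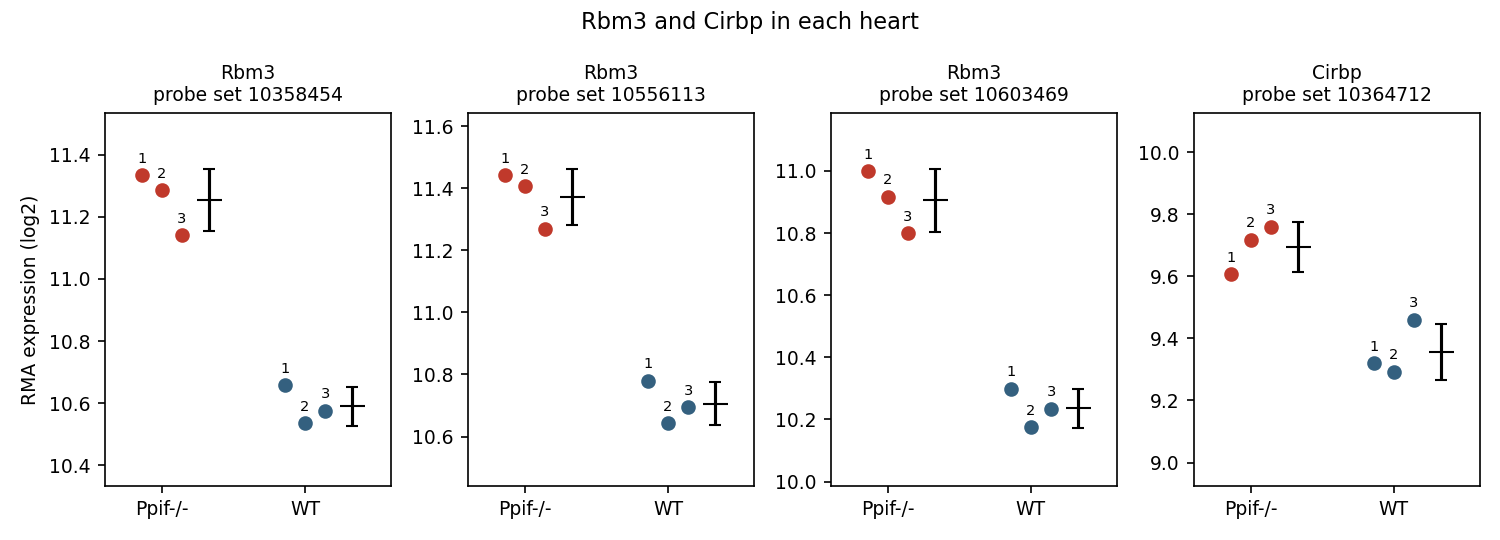
RMA expression (log2, axis of equal span in each panel) of the 3 Rbm3 probe sets and the Cirbp probe set in each heart, with Ppif-/- hearts in red and WT hearts in blue, numbered by heart, and the mean ± SD in black. The 3 Rbm3 panels show the same pattern with a gap of 0.48 to 0.50 between genotypes, and Cirbp shows a gap of 0.146.

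The groups were separate, with Ppif-/- hearts higher, for 4 of the 4 probe sets. The same held for 9.21% of all 23410 probe sets with a gene symbol, and nothing is read from the members' count because this contrast chose them. Of those 23410 probe sets, 163 to 165 had a higher difference than the Rbm3 probe sets, and 734 had a higher one than Cirbp. Rbm3 and Cirbp did not order the hearts of a genotype alike. Among Ppif-/- hearts, heart 1 had the highest Rbm3 and the lowest Cirbp, and heart 3 the reverse. Among WT hearts, heart 1 was the highest for Rbm3 and heart 3 for Cirbp, with heart 2 the lowest for both.

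RefSeq gives Cirbp 2 promoter windows in the assembly GRCm38.p6, each from 250 bases before to 50 bases after a transcript start, and the window of the start further upstream is shown because it holds the 8 letters of the mild cold response element. This element was described in the mouse Cirbp promoter as a binding site of the factor SP1 under mild cooling. The window lies at chr10:80167589-80167888 on the + strand, and the capitals mark the element.
Cirbp promoter, upstream start: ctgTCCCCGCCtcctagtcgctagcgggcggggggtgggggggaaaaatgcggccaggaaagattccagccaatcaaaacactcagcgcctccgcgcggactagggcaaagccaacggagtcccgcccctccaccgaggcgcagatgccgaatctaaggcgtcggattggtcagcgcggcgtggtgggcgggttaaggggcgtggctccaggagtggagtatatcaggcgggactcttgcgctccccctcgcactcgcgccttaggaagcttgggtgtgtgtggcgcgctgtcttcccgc
The element TCCCCGCC matched once on the + strand, at bases 4 to 11 of the window, and 5.38% of the 32851 promoter windows in the table hold it on either strand. The second Cirbp window, at chr10:80167921-80168220, held 0 matches. The GC box GGGCGG, a letter string also bound by SP1 and not overlapping the element here, matched 3 times in the upstream window and 4 times in the second, on either strand, against 35.7% of all windows with at least 1 match. The E-box CACGTG of the clock activators, the paired heat shock motifs GAANNTTC and TTCNNGAA, and the cyclic AMP response element TGACGTCA had 0 matches in both windows, and 7.15%, 7.86%, 8.52% and 1.79% of all windows hold them. These are matches of letters in RefSeq sequence with G and C at 65.7% and 70.0% of the bases of the Cirbp windows, against a median of 52.7% over all windows, and binding was not measured. Rbm3 is not listed in that table.

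The genes beside Rbm3 and Cirbp on their chromosomes gave smaller differences than the member they flank, and some had the other sign. Both members were selected on their differences, so smaller values beside them were likely from that choice alone. Of the 20 neighbours, 11 were kept in a fit limited to the brighter probe sets (11705 of 23410). RMA understates differences of dim probe sets, so small differences of the dimmer neighbours do not show that they were unchanged. Of the 10 measured genes nearest to Rbm3 on chromosome X, 5 on each side, 0 passed an adjusted p of 0.05 in limma and the same number reached 0.05 unadjusted, with differences between -0.18 and 0.10. The adjacent Wdr13, a WD-repeat protein, was at 0.10 ± 0.06 (limma adjusted p = 0.532). Rbm3os, the antisense transcript at the Rbm3 locus, had 5.01, 5.14 and 5.82 in Ppif-/- hearts, against 5.19, 5.20 and 5.52 in WT hearts. These genotypes overlapped, and the difference was 0.02 ± 0.20 (limma adjusted p = 0.984). The Rbm3os means of 5.32 in Ppif-/- and 5.30 in WT hearts lay below the array medians of 6.03 to 6.11. Of the 10 genes nearest to Cirbp on chromosome 10, 0 passed in limma and 1 reached an unadjusted 0.05, with differences between -0.26 and 0.17. The adjacent genes were Midn, which encodes the nuclear protein midnolin, at 0.17 ± 0.11 (limma adjusted p = 0.582) and Fam174c at -0.25 ± 0.11 (limma adjusted p = 0.408).

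**Figure D2:**
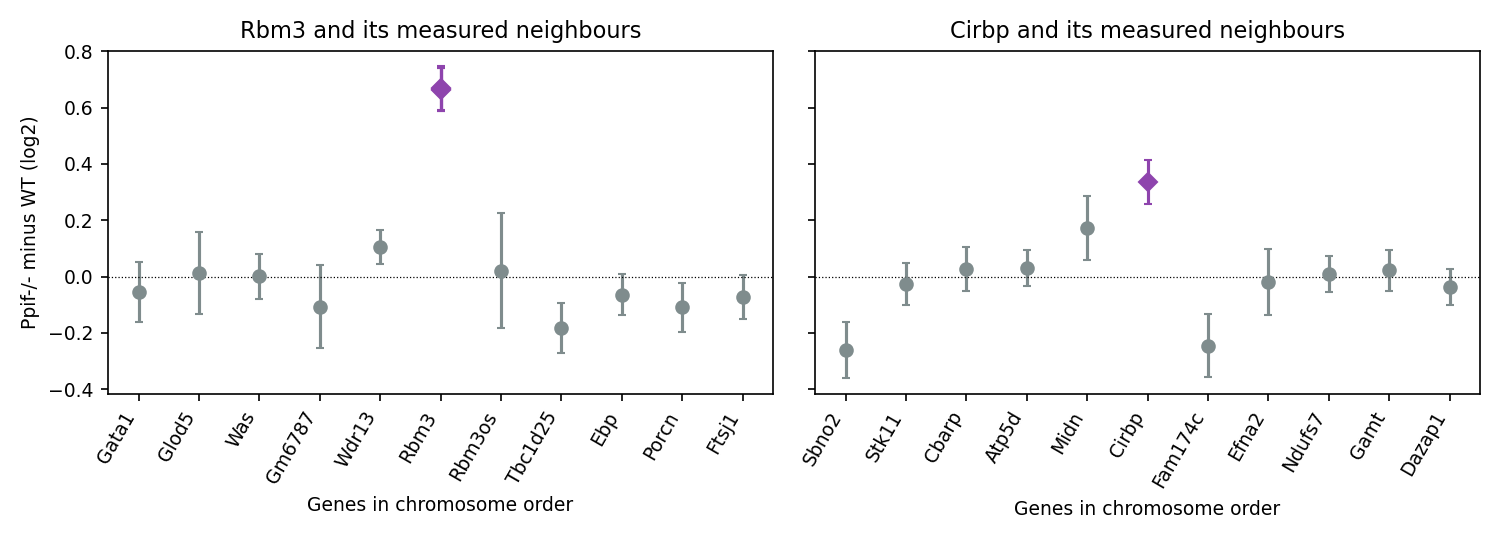
Difference between Ppif-/- and WT hearts (log2, limma fit, bars are ± SE) for Rbm3 and Cirbp in purple and the 5 nearest measured genes on each side in grey, in chromosome order. The neighbours lie between -0.18 and 0.10 around Rbm3 and between -0.26 and 0.17 around Cirbp.

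Other genes were read in 5 lists drawn up around the known biology of RBM3 and CIRBP, each gene through its brightest probe set. Over all 23410 probe sets, 1.09% passed a limma adjusted p of 0.05 (0.624% higher, 0.461% lower in Ppif-/-), and the median difference was -0.0023. Lists are described by counts and medians only. The clock list was the one with more than 1 called member, and its genes are covered briefly since clock transcripts were known to differ in these hearts.

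Chaperones and heat shock factors had a median difference near 0. Some of their transcripts in mouse tissues peak when body temperature is high, opposite to Cirbp. The list mixes heat-induced genes with other chaperones, such as Hspa5 and Hspa9, so its median does not speak for heat-induced transcripts alone. Of the heat shock factors, Hsf2 was measured and Hsf1 was not. Of 35 measured genes, 1 was higher and 0 were lower by limma adjusted p, and the median was -0.01. An unadjusted p under 0.05 was reached by 3 with higher and 4 with lower values in Ppif-/- hearts, against 6.1% and 6.81% of all probe sets. Hearts were separate with Ppif-/- higher for 3 of 35 and lower for 5 (9.21% and 10.6% of all probe sets). Dnajb1, an HSP40 cochaperone and target of the heat shock factor HSF1, had 9.75, 9.04 and 8.80 in Ppif-/- hearts, against 7.22, 7.35 and 7.23 in WT hearts. Every Ppif-/- heart was above every WT heart, with a wider spread in Ppif-/- (SD 0.50) than in WT hearts (0.07). Dnajb1 rose 3.81-fold (1.93 ± 0.22, limma adjusted p = 0.00669, and 0.000884 to 0.0403 over the alternative fits). The next smallest p was that of Dnajb5, a related HSP40 protein, at 8.70 ± 0.08 in Ppif-/- and 8.96 ± 0.04 in WT hearts (SD, n = 3 each; difference -0.26 ± 0.07, limma adjusted p = 0.168). The other chaperone genes with separate, higher hearts were Hspa1a (1.55 ± 0.53, limma adjusted p = 0.266) and Dnaja1 (0.51 ± 0.15, limma adjusted p = 0.208). Dnajb5 was among the 5 with separate, lower hearts. Ppif-/- heart 1 was the highest of its genotype for Dnajb1, Hspa1a, Dnaja1 and Rbm3, and the lowest for Cirbp.

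SR proteins and CLK kinases form a splicing switch that responds to small changes in body temperature. CLK activity is known to affect CIRBP levels in cultured cells. The list under this name also holds SRPK kinases and other splicing factors, such as the U2AF and LUC7-like genes. Of 28 measured genes, 0 passed an adjusted p of 0.05 in limma, while 6 had an unadjusted p under 0.05 with higher values in Ppif-/- hearts and 0 with lower values (6.1% and 6.81% of all probe sets). Hearts were separate with Ppif-/- higher for 7 of 28 (9.21% of all probe sets) and with Ppif-/- lower for 0 (10.6%). The list median was 0.13, with 21 genes above 0 and 7 below. Srpk2 and U2af1l4, which are neither SR proteins nor CLK kinases, were among the separate, higher genes. The kinases Clk1, Clk3 and Clk4 overlapped between genotypes, at 0.27, -0.02 and 0.25 (limma adjusted p = 0.428, 0.943 and 0.481). Srsf3, an SR splicing factor, had 11.56, 11.56 and 11.54 in Ppif-/- hearts, against 11.20, 11.18 and 11.26 in WT hearts. The hearts of each genotype lay close together, but the difference of 0.34 ± 0.06 missed the threshold (limma adjusted p = 0.0548). Tra2b, an SR-like splicing activator, had 10.72, 10.59 and 10.54 in Ppif-/- hearts, against 10.24, 10.17 and 10.32 in WT hearts (0.37 ± 0.08, limma adjusted p = 0.0787). The 3 probe sets of Srsf3 lay at 0.34 to 0.35 and the 2 of Tra2b at 0.27 and 0.37. Srsf3 passed in limma on the brighter probe sets alone, with a trended variance prior and with arrays weighted (adjusted p = 0.0165, 0.00385 and 0.0341), and Tra2b in the first and second of these (0.0334 and 0.0215).

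RNA-binding proteins listed as relatives of RBM3 and CIRBP, most of them with an RRM, together with cold shock domain proteins, had 0 calls as well. Of 32 measured genes, 0 passed in limma, 4 had an unadjusted p under 0.05 with higher values in Ppif-/- hearts and 2 with lower values (6.1% and 6.81% of all probe sets), and the median was 0.07. Hearts were separate with Ppif-/- higher for 8 of 32 and lower for 3 (9.21% and 10.6% of all probe sets). Those lower were Csdc2, Taf15 and Ybx3. The cold shock domain gene Csdc2 had the largest difference of the list, lower in Ppif-/- hearts at -0.90 ± 0.29 (limma adjusted p = 0.233). Over the list, 23 genes lay above 0 and 9 below. Rbmx, an X-linked RRM protein of nuclear RNA processing, had 9.29, 9.38 and 9.31 in Ppif-/- hearts, against 9.01, 9.01 and 9.04 in WT hearts. Its genotypes were separate by more than the range within either, and the difference was 0.30 ± 0.06 (limma adjusted p = 0.08). It passed in the 3 alternative fits named for Srsf3 (limma adjusted p = 0.0277, 0.031 and 0.047). Rbm39, an RRM splicing factor, had 10.50, 10.43 and 10.38 in Ppif-/- hearts, against 10.25, 10.18 and 10.10 in WT hearts (0.26 ± 0.07, limma adjusted p = 0.174).

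**Figure D3:**
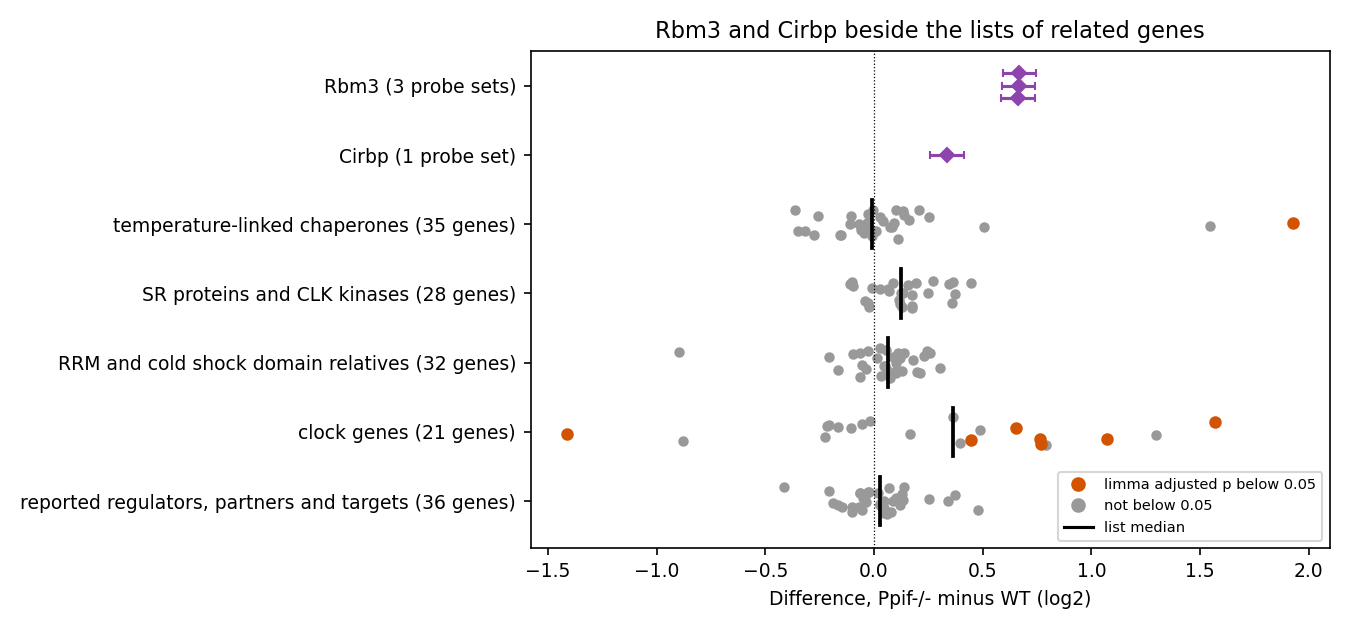
Difference between Ppif-/- and WT hearts (log2) for the probe sets of Rbm3 and Cirbp (purple, ± SE of the limma fit) and for each measured gene of 5 lists, orange where the limma adjusted p was below 0.05 and grey otherwise, with a black line at the list median. The medians are -0.01 for chaperones, 0.13 for SR proteins and CLK kinases, 0.07 for RRM and cold shock domain relatives, 0.36 for clock genes and 0.03 for reported regulators, partners and targets.

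Genes reported in other systems as regulators, partners, RNA targets or receptors of RBM3 or CIRBP had 0 calls and a median difference of 0.03. Of 36 measured genes, 0 passed in limma (1.09% of all probe sets). An unadjusted p under 0.05 was reached by 4 with higher and 2 with lower values in Ppif-/- hearts (6.1% and 6.81% of all probe sets). The genotypes were separate with Ppif-/- higher for 6 of 36 (16.7%) and lower for 4 (11.1%), against 9.21% and 10.6% of all probe sets. Prmt1, the main asymmetric arginine methyltransferase, which modifies RGG stretches, had 9.55, 9.59 and 9.45 in Ppif-/- hearts, against 9.22, 9.06 and 9.29 in WT hearts (0.34 ± 0.08, limma adjusted p = 0.131). Pde4b, a phosphodiesterase that breaks down cyclic AMP, had 8.62, 8.41 and 8.26 in Ppif-/- hearts, against 8.15, 7.93 and 8.09 in WT hearts (0.37 ± 0.11, limma adjusted p = 0.185). In both genes the genotypes were separate.

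Of 21 clock genes, 6 were higher and 1 was lower by limma adjusted p (0.624% and 0.461% of all probe sets), and the median was 0.36. An unadjusted p under 0.05 was reached by 10 with higher and 3 with lower values in Ppif-/- hearts (6.1% and 6.81% of all probe sets). The genotypes were separate with Ppif-/- higher for 9 of 21 and lower for 5 (9.21% and 10.6% of all probe sets). Dbp, a transcription factor at the output of the clock, had 10.36, 10.05 and 10.35 in Ppif-/- hearts, against 8.76, 8.46 and 8.84 in WT hearts (1.57 ± 0.13, limma adjusted p = 0.00137). The repressor Bhlhe40 was higher by 0.77 ± 0.07 (limma adjusted p = 0.00321), and Dbp and Bhlhe40 kept their calls in every alternative fit. Per1 (1.07), Bhlhe41 (0.65) and Nr1d2 (0.45), also repressors, were higher as well, and Arntl, which encodes the activator BMAL1, was lower at 6.30, 7.39 and 6.64 in Ppif-/- hearts, against 8.17, 8.22 and 8.18 in WT hearts (-1.41, limma adjusted p = 0.0418). Leaving out 1 heart ended the call of Per1 for WT heart 1 (limma adjusted p = 0.0511), of Bhlhe41 for any heart but Ppif-/- heart 2 (0.0507 to 0.0841), of Nr1d2 for any heart (0.069 to 0.109) and of Arntl for any heart but Ppif-/- heart 2 (0.0639 to 0.159). Testing all probe sets also ended the calls of Per1, Bhlhe41, Nr1d2 and Arntl (limma adjusted p = 0.0627, 0.0811, 0.083 and 0.141). A replicate block ended that of Nr1d2 (limma adjusted p = 0.0824), and array weights that of Arntl (0.0542). Ppif-/- heart 2, which had the middle value of its genotype for Rbm3 and for Cirbp, had the highest Arntl and the lowest Dbp of its genotype.

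**Figure D4:**
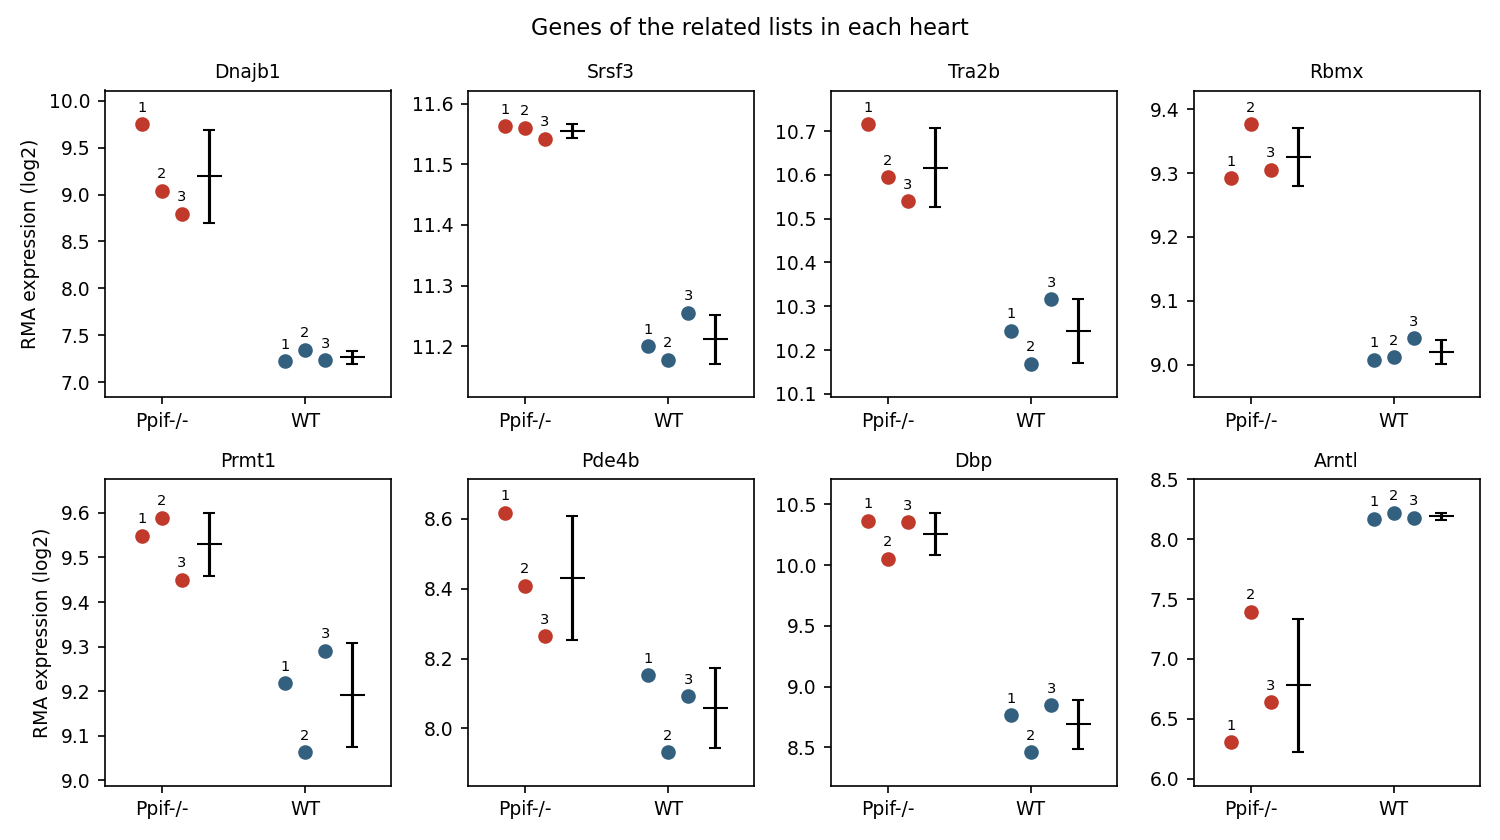
RMA expression (log2, a separate axis in each panel) of 8 genes of the lists in each heart, with Ppif-/- hearts in red and WT hearts in blue, numbered by heart, and the mean ± SD in black. The genotypes are separate in every panel shown, with Dnajb1 highest in Ppif-/- heart 1 at 9.75 and Arntl lower in Ppif-/- hearts.

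The genes most like Rbm3 and Cirbp were sought among 19937 others by the root mean square distance over the 6 hearts between log2 values centred on each probe set's mean. Nearest to Rbm3 were 1 probe set of the phosphatase gene Acp1 (distance 0.046), Alg14, a subunit of the enzyme that starts N-glycan chains (0.06), Tlcd4 (0.063), the DNA helicase gene Mcm8 (0.065) and 1 probe set of the procollagen protease gene Adamts3 (0.067). Their differences ran from 0.57 to 0.70. The 5 Acp1 probe sets disagreed in direction, between -1.83 and 0.71, and the 16 of Adamts3 lay between 0.21 and 0.87. Nearest to Cirbp were Tent5d (0.029), 4931428F04Rik (0.034), the microRNA gene Mir674 (0.035), Omt2b (0.036) and Sec14l1 (0.037), with differences from 0.30 to 0.38. Some of the genes named here were dim. Mean levels in Ppif-/- and WT hearts were 4.27 and 3.69 for Tlcd4, 4.19 and 3.86 for Tent5d, and 3.80 and 3.42 for Omt2b. These lie far below the array medians of 6.03 to 6.11, and 4931428F04Rik (5.90 and 5.57) also lies below them. Cirbp was the 335th nearest gene to Rbm3, at a distance of 0.2, and Rbm3 the 8962nd nearest to Cirbp. With 6 hearts in 2 genotypes, any gene with a difference of like size lies near, so these lists describe the pattern only.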

How the data were processed

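Per the submitters' processing notes, the authors made the deposited log2 values with RMA. No source used here names the software or a filter. RMA understates differences of dim probe sets. Values were used as deposited; 0 columns lacked a sample, and the 3 arrays per genotype limit the precision of every value.

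Gene symbols came from the platform annotation and were brought up to date through Entrez identifiers (21698 of 21789 probe sets with 1 symbol matched). All 23410 with a symbol were fitted with limma 3.58.1 in R 4.3.3 (lmFit, eBayes, 2-sided, Benjamini-Hochberg, threshold 0.05), without covariates. The procedure was tested on simulated arrays with 200 changed probe sets. It recovered 50% of log2 changes of 0.5, 86% of changes of 1 and 98% of changes of 2. Of its calls, 7.22% were false. Differences are Ppif-/- minus WT, and folds are 2 to that power.

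The members and lists were chosen with earlier results of these data known. Within each list, the text names members past the threshold, up to 6 in order of p, or, where under 2 passed, the 2 of lowest p. It also names Ppif, Hspa1a, Dnaja1, Hsf1, Hsf2, Hspa5, Hspa9, Clk1, Clk3, Clk4, Srpk2, U2af1l4, Csdc2, Taf15 and Ybx3. The neighbours adjacent to each member and the 5 nearest profiles are named too. Neighbour order came from a gene table of GRCm38.p6, the build of the promoter sequences, while the build behind the array annotation was not used. Same-numbered hearts did not deviate together (correlations -0.077, -0.061 and 0.12).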

Additional observations from a re-analysis of the deposited data

How the results depend on the processing

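The difference of each Rbm3 probe set stayed between 0.62 and 0.72 and that of Cirbp between 0.30 and 0.39 over the 15 other fits. A replicate block, another variance prior or another choice of probe sets leaves these differences unchanged by construction. With quantile normalization, median centring or array weights they ran from 0.645 to 0.683 for Rbm3 and from 0.318 to 0.353 for Cirbp. Without 1 heart they ran from 0.624 to 0.720, 0.632 to 0.717 and 0.622 to 0.722 for Rbm3. For Cirbp they ran from 0.304 to 0.388 without 1 heart. No sign could change there, since every Ppif-/- heart lay above every WT heart. A replicate block lowered the probe sets called to 160, against 254 without it, and the labels do not say that the number pairs hearts. The total was 405 where dim probe sets were left out, 131 where those without a symbol were added, 453 with a trended variance prior, 386 with array weights and 131 to 171 without 1 heart. SR proteins and CLK kinases called numbered 2 on the brighter probe sets, 3 with a trend and 1 with array weights, and RRM and cold shock domain relatives 1 in each of these 3 fits, against 0 for both lists in the others, without 1 heart included. Clock genes called fell to 2 when all probe sets were tested and numbered 2 to 7 without 1 heart. The calls among chaperones (1), reported partners (0) and chromosome neighbours (0) were the same in all fits. With Pearson correlation in place of the distance, 2 of the 5 genes nearest to Rbm3 and 0 of the 5 nearest to Cirbp were chosen again. The causes were not tested. Signal over background was not analysed here.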
